A study of Mus musculus with 12 samples.

Results

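Aire, the autoimmune regulator, and 9 genes that lie near it on mouse chromosome 10 were followed across 12 whole-transcript arrays of CD8+CD28low regulatory T cells, CD8 T cells described as low in the costimulatory receptor CD28. The 10 genes were Aire, Icosl, Dnmt3l, Itgb2, Sumo3, Cstb, Pttg1ip, Ube2g2, Slc19a1 and Adarb1, chosen because the DNA that flanks a targeted gene can differ between a knockout and its controls. All 10 were among the 19938 genes measured, each read from 1 row of the deposited table, and where a gene had more than 1 row the brightest was used. All mice were C57Bl/6. The arrays formed 4 groups of 3: freshly isolated (native) cells of wild-type mice (WT), native cells of mice labelled Aire knockout (KO), and cells of each genotype after 96 h of culture in which allogenic antigen-presenting cells and anti-CD3 stimulated them (activated). The labels give neither the design of the Aire allele, nor the number of mice behind an array, nor how the cells were sorted. The titles call the arrays of a group biological replicates, without saying how the replicates were made. The p-values therefore measure the spread between these arrays, which may in part be technical.

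Aire is a transcriptional regulator best known from medullary thymic epithelial cells, where it drives low-level expression of many genes of peripheral tissues and so shapes the removal of self-reactive T cells. Its loss causes autoimmunity in mice and in humans. The neighbouring genes have unrelated roles. Icosl encodes the ligand of the costimulatory receptor ICOS and is known mainly from B cells, macrophages and dendritic cells; Dnmt3l is a cofactor of the de novo DNA methyltransferases of germ cells; Itgb2 is the shared beta chain of the leukocyte integrins.

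Aire spans chr10:78030022-78043610 on the minus strand (GRCm38.p6), and the first bases of Dnmt3l, which runs on the plus strand, lie inside it: both gene models share 1324 bp. Icosl starts 25.8 kb beyond Aire. Cstb lies 382.1 kb away on the same side. On the other side lie Ube2g2 at 384.0 kb, Sumo3 at 411.7 kb, Pttg1ip at 431.3 kb, Itgb2 at 464.3 kb, Adarb1 at 611.7 kb and Slc19a1 at 979.6 kb. The promoters of Aire and Icosl are shown because the first is the gene named by the genotype and the second had the largest KO minus WT difference among the 10. Both are RefSeq windows of 300 bases on GRCm38.p6, from 250 bases before the annotated start to 50 after it, written 5′ to 3′ along the gene; Aire's lies at chr10:78043561-78043860 on the minus strand and Icosl's at chr10:78069118-78069417 on the plus strand. Capitals mark matches to a TATA box (TATAAA) or a CCAAT box (CCAAT, or ATTGG on the opposite strand), searched on both strands.
Aire: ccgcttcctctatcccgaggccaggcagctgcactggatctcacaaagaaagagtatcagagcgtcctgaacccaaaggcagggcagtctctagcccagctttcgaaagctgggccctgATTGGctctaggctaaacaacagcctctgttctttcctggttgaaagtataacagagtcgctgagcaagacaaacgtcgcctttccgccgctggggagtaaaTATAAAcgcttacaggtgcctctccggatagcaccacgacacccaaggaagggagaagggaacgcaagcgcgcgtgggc
Icosl: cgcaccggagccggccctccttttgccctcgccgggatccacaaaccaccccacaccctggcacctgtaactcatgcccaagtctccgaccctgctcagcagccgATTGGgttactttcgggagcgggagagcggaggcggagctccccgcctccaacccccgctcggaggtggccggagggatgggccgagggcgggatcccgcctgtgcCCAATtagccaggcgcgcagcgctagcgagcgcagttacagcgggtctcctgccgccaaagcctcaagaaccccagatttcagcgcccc
The Aire window holds 1 TATAAA that begins 29 bases before the start, a motif that 13.6% of 32851 promoters of the same length hold, and 1 CCAAT match. The Icosl window holds no TATAAA and 2 CCAAT matches, 1 on each strand, a motif present in 37.4% of all promoters. It is also richer in CpG, with 26 sites against 16 for Aire and a median of 7 over all promoters. These are matches of letters, not measured sites of binding. Promoter entries were found for 7 of the 10 genes; those of Itgb2, Cstb and Ube2g2 were not among them.

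Some properties of the arrays touch the results. The 95th percentile of 1027 olfactory receptor genes, which T cells are not known to use, served as each array's background level. A gene counts as at background in a group if none of the 3 arrays exceeded that level. That level ran from 6.12 to 6.72 (log2) on 11 arrays and was 7.31 on activated KO array 3, where 6324 genes lay above it against 8449 to 10301 on the other arrays; values are therefore also given without that array where it matters. Xist, the RNA of the inactive X chromosome, read 5.26 and 4.98 on the native and activated KO arrays numbered 1 and at least 9.34 on the other 10 arrays. Sex-linked genes measured numbered 4, Xist and genes of the Y chromosome, and 0 of them were at background in any group. Averaged over both states 3 stood higher in KO and 1 lower. All 4 had an unadjusted limma p under 0.05, against 0.592% of all genes, and 0 passed after adjustment. The sex of the mice behind each group was not tested. T cell markers were high on all arrays: Cd3e read 12.4 to 12.9 and Cd8a 10.8 to 12.7, while Cd4 was at background in every group. Cd28 transcript read 9.98 to 11.97, above background throughout. The label of low CD28 was not tested by these levels.

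Aire itself was at background in all 4 groups, so its level could not show the genotype. Native WT arrays read 5.83, 5.92 and 5.70 (log2), and native KO arrays 5.61, 5.73 and 5.73. Activated WT arrays read 5.56, 5.78 and 5.55, and activated KO arrays 5.73, 5.62 and 5.89. The groups of both genotypes overlapped in each state, none of the 12 values rose above the background level of its array, and 7 of 12 lay above the median of the olfactory receptor genes. The KO minus WT difference was -0.13 ± 0.11 in native cells (log2; ± is the standard error of the limma fit over 12 arrays throughout; adjusted p = 1.00) and 0.12 ± 0.11 in activated cells (adjusted p = 1.00). Averaged over both states it was -0.0044 ± 0.0796, with a 95% interval from -0.18 to 0.17. The sources used here do not say which part of Aire was deleted or where the probes of its row lie, so the row neither checks nor contradicts the genotype labels.

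**Figure D1:**
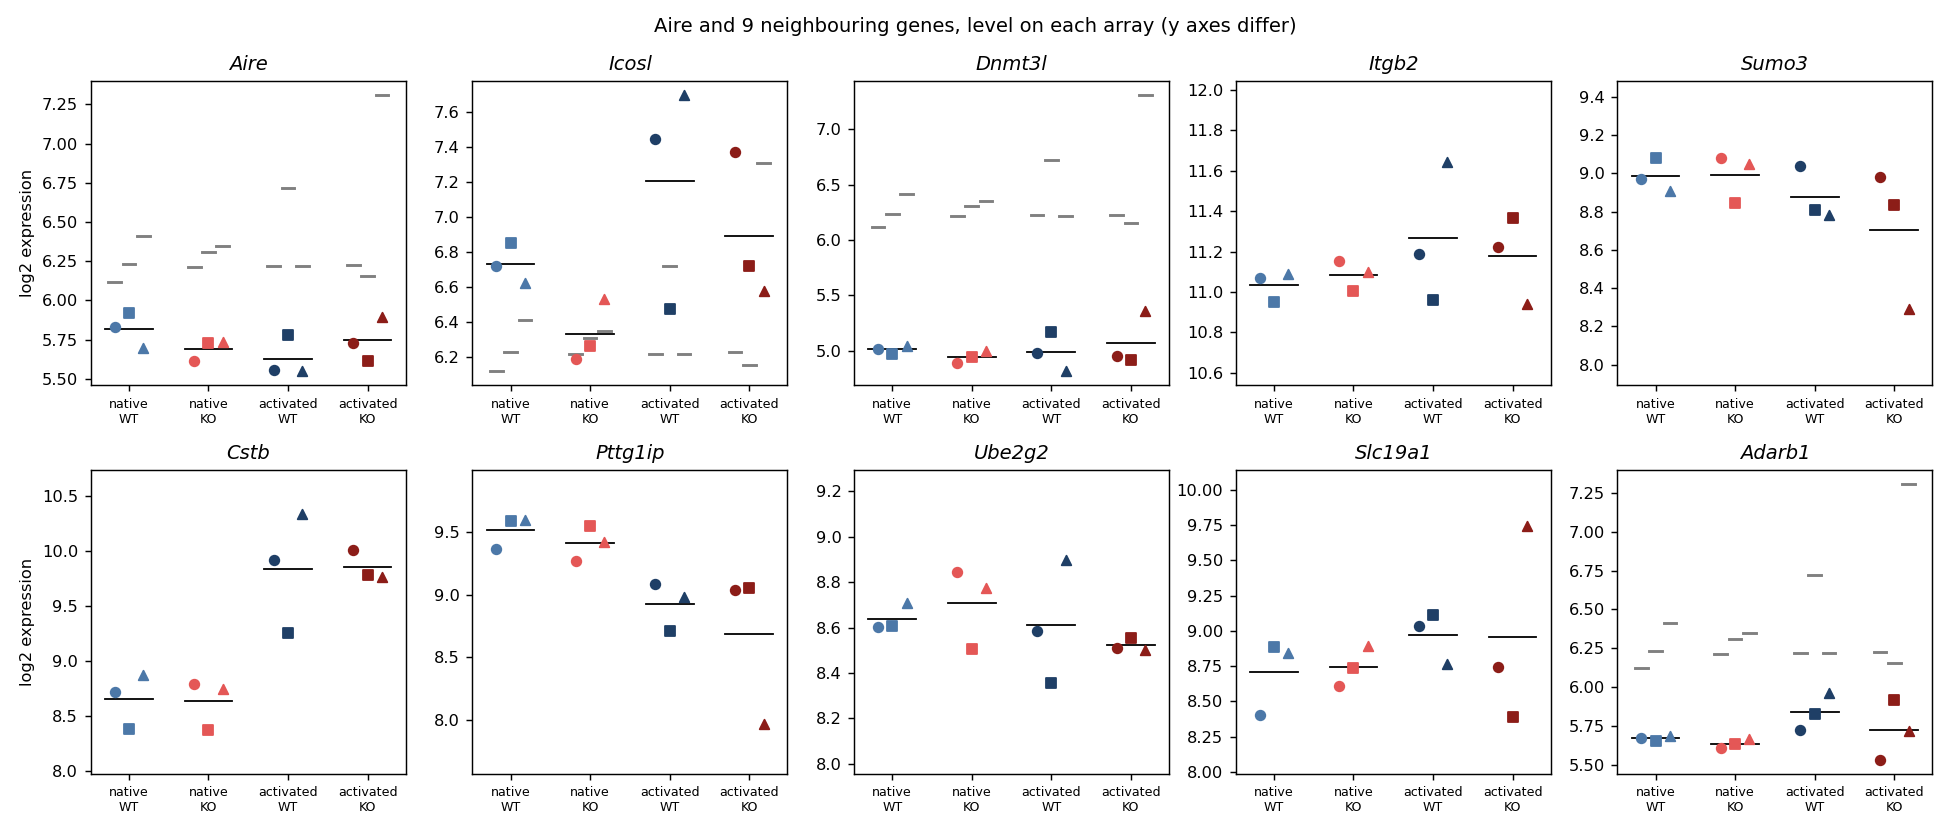
Level of each of the 10 genes (log2, y axis; the axes differ between panels) on each of 12 arrays, by group on the x axis. Circles, squares and triangles are arrays 1, 2 and 3; black lines are group means; grey ticks, where in range, are each array's background level. Aire, Dnmt3l and Adarb1 lie under the grey ticks on all 12 arrays, and Cstb is higher on every activated array than on any native one.

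Dnmt3l and Adarb1, an adenosine deaminase that edits double-stranded RNA and is best known from brain, were likewise at background in every group. Dnmt3l ranged from 4.81 to 5.35 and lay under the olfactory median on all 12 arrays. Adarb1 ranged from 5.53 to 5.96. Their KO minus WT differences were -0.07 ± 0.13 and -0.04 ± 0.11 in native cells and 0.08 ± 0.13 and -0.11 ± 0.11 in activated cells (adjusted p = 1.00 for each). RMA compresses differences at background, and for these 3 genes the arrays set no more than an upper limit on the level.

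Icosl had the lowest KO minus WT difference of the 10 genes in native cells. In activated cells it was also the lowest with all arrays, but not without activated KO array 3, where the brighter row of Slc19a1 stood lower. Native WT arrays read 6.72, 6.85 and 6.62, native KO arrays 6.19, 6.26 and 6.53. Every native KO value lay under every native WT value. All 3 WT arrays but only KO array 3 (6.53 against 6.35) were above their background level. The difference was -0.40 ± 0.28 with a 95% interval from -1.02 to 0.22, and it did not pass the test (adjusted p = 1.00). The exact two-sided permutation test gave p = 0.1 for the native state, the smallest value that 3 arrays against 3 can give. Such a separation was common: 981 genes, 4.92% of all 19938, had every native KO array under every WT array. Icosl was the only one of the 10 genes in that set, read from the brightest rows.

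In activated cells the genotypes overlapped. Activated WT arrays read 7.45, 6.47 and 7.70 for Icosl and activated KO arrays 7.37, 6.72 and 6.58, a difference of -0.32 ± 0.28 (adjusted p = 1.00), and single arrays moved it widely. It was -0.16 ± 0.30 without KO array 3, -0.07 without WT array 3 and -0.68 without WT array 2, and -0.56, -0.20 and -0.23 without KO array 1, WT array 1 and KO array 2; none passed the test. Activated WT array 2 and activated KO array 3, the arrays with the highest background levels, were the only activated arrays not above it. Averaged over both states the difference was -0.36 ± 0.20 (unadjusted p = 0.0992, adjusted p = 1.00; exact permutation p = 0.13 within states, Benjamini-Hochberg 0.99 over the 10 genes). The change of the genotype difference with state was 0.08 ± 0.40.

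Taken by the numbers that the labels share between genotypes, the native Icosl differences were -0.53, -0.59 and -0.09. Deviations of the native arrays from their group means correlated at 0.58, 0.396 and 0.157 for equal numbers and at -0.505 to 0.130 for unequal ones. Number 3 was thus hardly set apart. Fitting just the 6 native arrays, with the number as a replicate block (a choice made after the data had been seen), left the difference at -0.40 with a smaller error of 0.105 (unadjusted p = 0.00409, adjusted p = 0.507).

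The cell types best known for Icosl were read through their markers on the same arrays. Macrophage and dendritic cell markers had mean levels of 5.73, 5.75 and 5.45 in native WT and of 6.33, 5.78 and 6.31 in native KO, and all 7 measured genes had a KO minus WT difference above 0 while Icosl's lay below 0. In the native state 5 of these 7, among them Csf1r, Adgre1 and Flt3, were at background in both genotypes, and Lyz2, a lysozyme of myeloid cells, stood at 2.19 ± 0.65 (adjusted p = 1.00). The MHC class II genes averaged 6.00, 6.43 and 5.69 in native WT and 7.32, 6.08 and 6.73 in native KO. The B cell markers averaged 6.41, 6.22 and 6.29 against 6.78, 6.28 and 6.32. Of 5 MHC class II genes 4 had a native difference above 0. In the 1 below 0, which was at background in both genotypes, all KO arrays lay under all WT arrays. Of 4 B cell markers 3 lay above 0 and 1 below, and 2 of the 4 were at background in both genotypes. Neutrophil and NK cell markers had higher means in native KO. The 8 neutrophil markers averaged 6.96, 6.02 and 5.43 in WT and 8.74, 6.23 and 8.06 in KO. The 5 NK cell markers averaged 7.62, 6.94 and 7.03 against 8.39, 7.39 and 7.85. All 8 and all 5 had differences above 0, where 59.9% of all genes lay below 0. After adjustment 0 passed the limma test, and 0 of all 19938 genes did. At an unadjusted limma p under 0.05 lay 7 of 8 neutrophil and 2 of 5 NK cell markers, against 0.657% of all genes. So did 2 of 7 macrophage and dendritic cell markers, 3 of 5 MHC class II genes and 0 of 4 B cell markers. In activated cells the macrophage and dendritic cell mean ran from 5.35 to 5.58 in WT and from 5.37 to 5.69 in KO, and all 7 genes were at background in activated WT, as were all 8 neutrophil markers in either genotype. In these bulk samples fewer cells of a type and less RNA per cell cannot be told apart, and the part of other cell types in the Icosl levels and in the native differences of its neighbours was not tested.

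**Figure D2:**
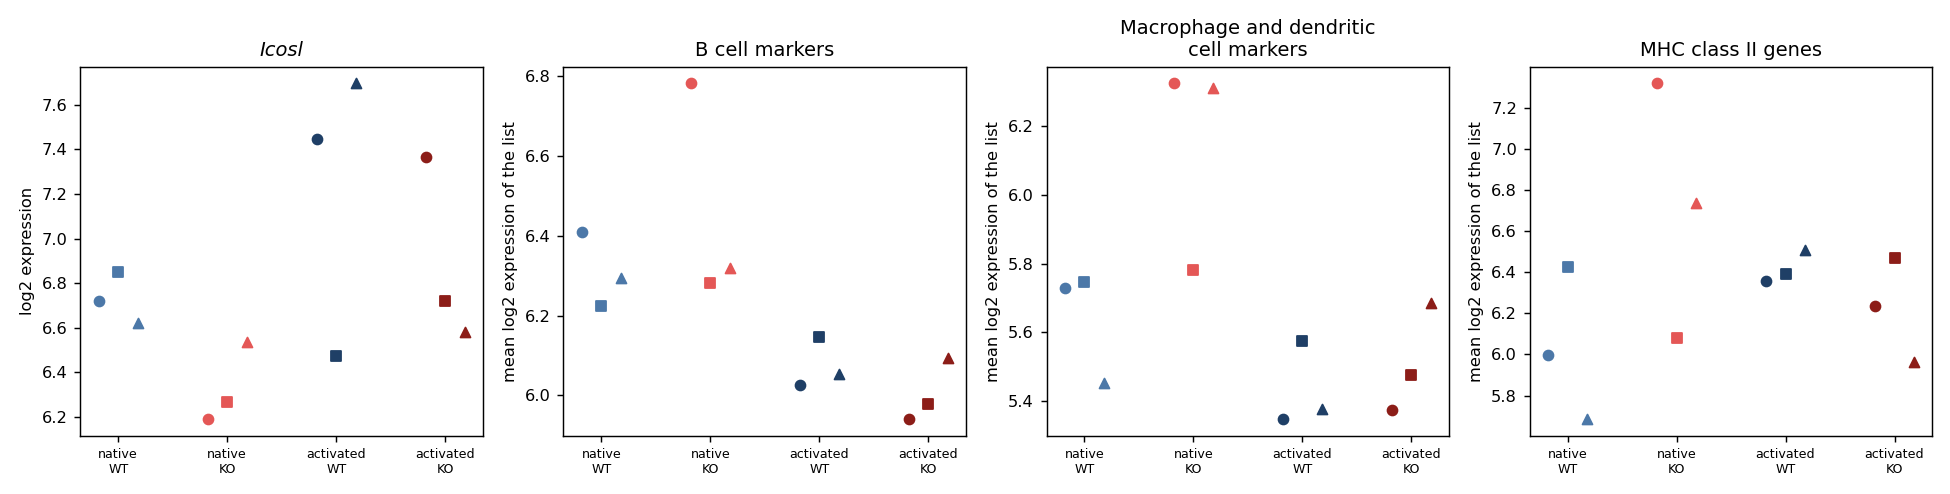
Icosl level (log2) and mean log2 level of the B cell, macrophage and dendritic cell, and MHC class II lists on each array, by group; circles, squares and triangles are arrays 1, 2 and 3. Native KO is under native WT for Icosl on all arrays, whereas the macrophage and dendritic cell mean reaches 6.33 in native KO against at most 5.75 in native WT.

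The remaining 6 genes were above background on all 12 arrays, and none passed the test between genotypes. Itgb2, which pairs with the alpha chains Itgal, Itgam, Itgax and Itgad to form LFA-1 and the myeloid integrins, read 11.07, 10.95 and 11.09 in native WT and 11.15, 11.01 and 11.10 in native KO. The native difference was 0.05 ± 0.16 and the activated one -0.09 ± 0.16, or 0.03 ± 0.16 without activated KO array 3. Its lymphocyte partner Itgal differed by 0.01 ± 0.14 and -0.05 ± 0.14. Itgam, a myeloid alpha chain, stood at 0.46 ± 0.19 in native cells, with WT arrays at 6.19, 6.12 and 5.86 and KO arrays at 6.96, 6.08 and 6.51 (adjusted p = 1.00). The genotypes overlapped for all of these.

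Sumo3, a small ubiquitin-like modifier, read 8.97, 9.08 and 8.91 in native WT and 9.08, 8.84 and 9.05 in native KO. Its differences were 0.0054 ± 0.16 in native cells and -0.17 ± 0.16 in activated cells, where KO array 3 was the lowest of all at 8.29; without that array the activated difference was 0.03 ± 0.12. Ube2g2, a ubiquitin-conjugating enzyme of endoplasmic reticulum-associated degradation, read 8.60, 8.61 and 8.71 in native WT and 8.84, 8.51 and 8.77 in native KO. It differed by 0.07 ± 0.14 in native and -0.09 ± 0.14 in activated cells.

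Pttg1ip, a membrane glycoprotein that binds the securin encoded by Pttg1, read 9.36, 9.58 and 9.60 in native WT against 9.27, 9.55 and 9.42 in native KO (-0.10 ± 0.24). In activated cells WT read 9.08, 8.71 and 8.98 and KO 9.03, 9.05 and 7.97 (-0.24 ± 0.24). The third KO array was far under the rest, and without it the difference was 0.12 ± 0.13. Cstb, the cathepsin inhibitor cystatin B, differed by -0.02 ± 0.24 in native cells and 0.01 ± 0.24 in activated cells. All adjusted p-values of these genes between genotypes were 1.00.

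Slc19a1, the reduced folate carrier, had 2 rows that did not track each other. The brighter read 8.40, 8.88 and 8.84 in native WT, 8.61, 8.74 and 8.89 in native KO, 9.03, 9.11 and 8.77 in activated WT and 8.74, 8.39 and 9.74 in activated KO. Its highest value was on the array whose background level was highest. The dimmer row read 8.55, 8.42 and 8.50, then 8.39, 8.40 and 8.34, then 9.07, 8.52 and 9.23, then 8.71, 8.68 and 8.99. Every native KO value of the dimmer row lay under the native WT values, with a difference of -0.11 ± 0.17 (adjusted p = 1.00). The brighter row gave 0.04 ± 0.29 in native cells, and in activated cells -0.01 ± 0.29, or -0.40 ± 0.17 without activated KO array 3 (adjusted p = 0.967). Over the 12 arrays the rows correlated at 0.337 and within the 6 native arrays at -0.59, given as a description. The brighter row is annotated by predicted transcript models alone.

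Across genotypes, then, 0 of the 10 genes passed the limma test in either state, in their mean or in the interaction, where percent called over all genes was 0 in each comparison. At an unadjusted p under 0.05 the counts were also 0 of 10, against 131 genes (0.657%) in native, 87 (0.436%) in activated cells, 118 (0.592%) in their mean and 86 (0.431%) for the interaction. The median difference of the 10 was -0.03 in native and -0.09 in activated cells, against -0.02 and -0.0062 for all genes. A p-value that misses the threshold does not show equal levels: the 95% interval for Cstb in native cells, for example, ran from -0.54 to 0.50.

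The segment around Aire was then read through all 57 measured genes within 1.5 Mb, 47 of them outside the 10. In native cells 41 of 57 (71.9%) had a difference below 0, against 59.9% of all genes, and their median was -0.05 against -0.02. Of the 29 that were not at background in both native groups, 22 (75.9%) lay below 0 against 59.4% of such genes in the whole set, with a median of -0.08 against -0.02. In 8 of the 57 genes (14.04%) all native KO arrays lay under all WT arrays, against the 4.92% given above, and in 0 the reverse held, against 2.12% of all genes. They were Icosl, Pdxk, Plpp2, Gm10787, Gm10142, Col6a2, Ftcd and Trpm2, of which the last 3 read at background in either genotype. The limma test called 0 of the 57, and 0 reached an unadjusted p under 0.05. The 6 native arrays were also fitted alone with the number as a block. An unadjusted limma p under 0.05 was then reached by 4 of 57 (7.02%), against 5.5% of all genes, in either direction. The 4 were Icosl, Gm10787, Gm10142 and Gm10272, all lower in KO, and of all genes 549 were lower and 548 higher. After adjustment 0 of the 57 passed, against 0.0702% of all genes.

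Pdxk, pyridoxal kinase, read 7.55, 7.55 and 7.53 in native WT and 7.43, 7.49 and 7.32 in native KO. Plpp2, a lipid phosphate phosphatase, read 6.39, 6.39 and 6.36 against 6.24, 6.34 and 6.25. The groups did not overlap for either gene, and their differences were -0.13 and -0.10. Outside the 10 genes the lowest native differences were -0.21 for Gm10142, -0.20 for Gm10787 and -0.19 for Gm10272, all genes without a name of known function. Of the native groups, Gm10787 was at background in KO only, so its difference is bounded at -0.10. Gm10142 was at background in native KO and above it on 1 native WT array, and its bound is 0. Gm10272 was above background on 1 array in each native group. The highest, 0.17 for Olfr1352, 0.16 for Olfr57 and 0.08 for Krtap12-1, were all genes at background. By shared number, for arrays 1, 2 and 3, 16, 23 and 21 of the 29 genes lay below 0, against 53.7%, 59.6% and 52.3% of comparable genes.

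Widening or narrowing the segment gave 21 of 27 genes below 0 within 0.5 Mb and 154 of 230 (67.0%) within 5 Mb, against 409 of 709 (57.7%) on the rest of chromosome 10. Genes whose native KO arrays lay wholly under WT made up 4 of 27 within 0.5 Mb, 14 of 230 (6.09%) within 5 Mb and 31 of 709 (4.37%) beyond. Neighbouring genes share arrays and are not independent, so these shares are descriptions. Without the native KO array numbered 1, which had little Xist, 24 of the 29 genes lay below 0, against 65.0% of comparable genes. The count was 20 without native WT array 3 (63.9% of comparable genes) or without native KO array 2 (53.5%), and 19 after quantile normalization (57.0%). In activated cells 30 of the 57 (52.6%) lay below 0 against 52.3% of all genes; 0 had KO wholly under WT (0.888% of all genes did). In 1 gene, Col6a2, KO lay wholly above WT (0.858% of all genes), at background levels. The lowest activated differences outside the 10 were -0.37 for Pfkl, -0.24 for Lss and -0.23 for Gatd3a and these rested on activated KO array 3, without which they were -0.04, -0.02 and -0.07. The highest were 0.47 for Olfr1355, 0.38 for Vmn2r83 and 0.38 for Olfr8, all at background, and without the same array they were -0.05, 0.07 and 0.10. Without it 35 of the 57 differences lay below 0. The share of all genes below 0 without that array was not computed, so no excess near Aire is read from the 35. The median difference of all genes was then -0.0068.

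**Figure D3:**
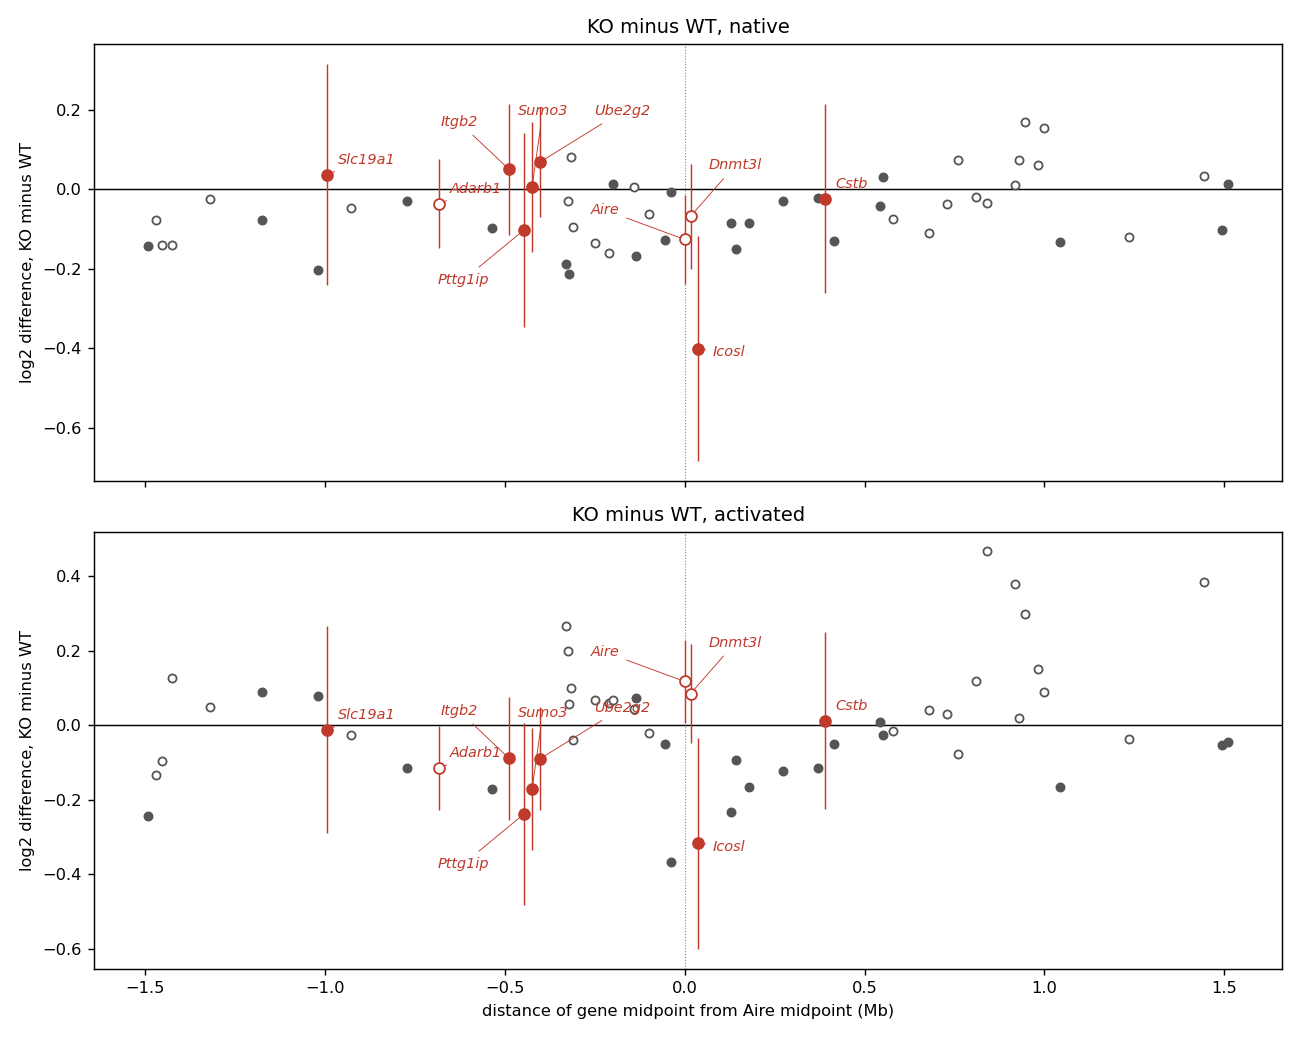
KO minus WT difference (log2, y axis) in native (upper) and activated (lower) cells of the 57 measured genes, against the distance of each gene's midpoint from that of Aire (Mb, x axis). Red points with standard errors are the 10 named genes, grey points the others, and open points are at background in both groups. In native cells 41 of 57 points lie below 0 and Icosl is the lowest at -0.40; in activated cells 30 of 57 lie below 0.

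Of the 10 genes, 1 passed the test on activation, in each genotype. It was Cstb, which restrains cysteine cathepsins. Cstb read 8.72, 8.38 and 8.87 in native WT and 9.92, 9.25 and 10.34 in activated WT. In KO cells it went from 8.79, 8.37 and 8.74 to 10.01, 9.78 and 9.77. No native array overlapped an activated one. The rise was 1.18 ± 0.24 in WT (2.27-fold, adjusted p = 0.00401) and 1.22 ± 0.24 in KO (2.33-fold, adjusted p = 0.00351), and the difference between genotypes was 0.04 ± 0.34. The 1 of 10 stands beside 20.6% of all genes called in WT and 20.1% in KO; genes called higher made up 9.72% and 8.72%, and genes called lower 10.9% and 11.4%. The median change of the 10 was 0.07 in WT and 0.09 in KO, against -0.02 and 0.02 for all genes. The WT and KO comparisons share no array.

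Pttg1ip stood lower on all activated arrays than on any native array of its genotype. The difference was -0.59 ± 0.24 in WT (adjusted p = 0.120) and -0.73 ± 0.24 in KO (adjusted p = 0.0568), neither past the threshold. Activated arrays wholly under native ones were seen in 23.4% of all genes in WT and 17% in KO, and wholly above in 17.5% and 13.8%. Without activated KO array 3, the lowest at 7.97, the WT value of -0.59 had a smaller error of 0.118 and passed (adjusted p = 0.00262), while the KO value was -0.37 ± 0.13 (adjusted p = 0.0644). With activated KO array 1 or 2 left out the KO value passed instead, at -0.90 and -0.91.

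Icosl was higher by 0.48 ± 0.28 in activated WT (adjusted p = 0.313) and by 0.56 ± 0.28 in activated KO (adjusted p = 0.220), and the KO groups did not overlap. Without activated WT array 2, at 6.47, the WT difference was 0.84 and passed (adjusted p = 0.0172). None of the other genes passed the test. Itgb2 differed by 0.23 and 0.09 in WT and KO, Sumo3 by -0.11 and -0.29 (SE 0.16 each), and Ube2g2 by -0.03 and -0.19. Slc19a1 differed by 0.26 and 0.21. The dimmer Slc19a1 row gave 0.45 ± 0.17 and 0.42 ± 0.17 (adjusted p = 0.0796 and 0.107). Aire differed by -0.19 and 0.06, Dnmt3l by -0.02 and 0.13, and Adarb1 by 0.17 and 0.09, all at background.

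**Figure D4:**
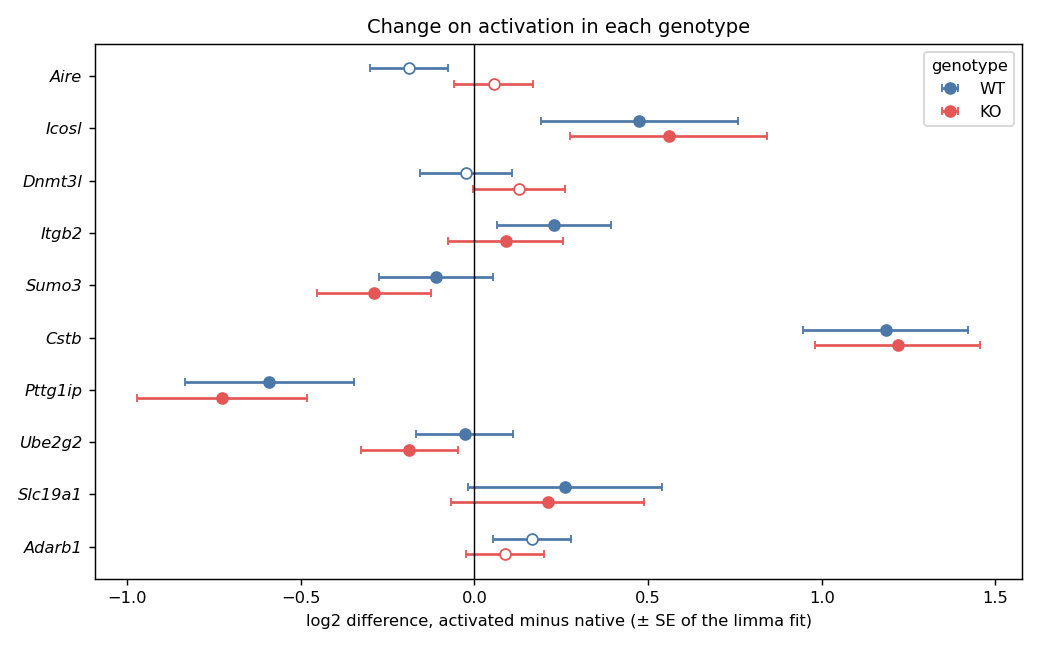
Activated minus native difference (log2, x axis) of each of the 10 genes (y axis) in WT (blue) and KO (red), with standard errors of the limma fit; open points are at background in both groups compared. Cstb stands at 1.18 and 1.22, and Pttg1ip at -0.59 and -0.73.

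Of the 57 genes within 1.5 Mb, Cstb among them, 8 (14.04%) passed in each genotype, against 20.6% of all genes in WT and 20.1% in KO. In WT 4 rose and 4 fell, and in KO 5 rose and 3 fell. Among the 47 genes outside the 10 the share was 14.9% in each genotype. Plpp2 rose by 2.65 and 2.69 in WT and KO, Lss, lanosterol synthase of the cholesterol pathway, by 2.26 and 2.16, and Pfkl, the liver-type phosphofructokinase of glycolysis, by 1.76 and 1.40. Ilvbl fell by 0.98 and 0.93, Pcbp3, a poly(rC)-binding protein, by 0.67 and 0.50, and Trappc10, a subunit of a vesicle tethering complex, by 0.51 and 0.60. Lss read 7.65, 7.61 and 7.49 in native WT and 10.06, 9.21 and 10.27 in activated WT.

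Genes that work with the 10 were read from fixed lists. None of these genes passed between genotypes in either state. The counts on activation stand beside 9.72% of all genes called higher and 10.9% called lower in WT, and 8.72% and 11.4% in KO, and nothing particular to a list is read from them. Of 19 measured proteins that bind Aire or act with it, 1 rose and 7 fell on activation in each genotype; the histone acetyltransferase Crebbp fell by 1.05 and 1.04 in WT and KO. Of 10 measured Aire-dependent antigens of the thymus, such as insulin 2, 0 passed in any comparison and 6 were at background in both native groups. Of 7 thymic epithelial markers 0 passed and 6 were at background in both native groups.

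Icos, the receptor that Icosl binds, rose on activation. It read 9.87, 9.57 and 9.42 in native WT and 11.10, 10.85 and 10.98 in activated WT, and the rise was 1.36 ± 0.27 in WT (adjusted p = 0.00363) and 0.91 ± 0.27 in KO (adjusted p = 0.0316). Between genotypes it stood at 0.13 ± 0.27 in native and -0.32 ± 0.27 in activated cells. In the costimulation list of 6 genes 2 rose and 1 fell in each genotype. Among 11 integrin beta 2 partners and ligands 0 rose while 5 fell in WT and 7 in KO. Itgal stood at 0.35 ± 0.14 in WT and 0.29 ± 0.14 in KO (adjusted p = 0.0996 and 0.185), and Itgam at -0.56 ± 0.19 in WT (adjusted p = 0.0602) and at -0.92 ± 0.19 in KO (adjusted p = 0.00489), with all activated arrays at background.

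Where 20.6% of all genes were called in WT and 20.1% in KO, of 9 cathepsins and cystatins 3 rose and 2 fell in WT, and 0 rose and 3 fell in KO. Ctsl, a cathepsin that cystatin B inhibits, fell by 1.25 ± 0.26 and 1.39 ± 0.26, and Ctsb stood at 0.32 ± 0.17 and 0.14 ± 0.17, not past the test. In the folate pathway 5 of 14 rose and 1 fell in each genotype, and thymidylate synthase, Tyms, rose by 2.42 ± 0.25 and 2.56 ± 0.25. Of 7 DNA methylation genes 2 rose and 1 fell in each genotype; the catalytic partners of Dnmt3l did not pass, Dnmt3a at 0.0085 and 0.17 and Dnmt3b at -0.13 and -0.07.

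Beside the same 20.6% and 20.1% of all genes, in the SUMO pathway 1 of 13 rose and 3 fell in each genotype, and Sumo2 stood at 0.25 ± 0.11 and 0.28 ± 0.11 (adjusted p = 0.148 and 0.108). Of 11 degradation partners of Ube2g2, 0 rose and 2 fell in WT, and 1 rose and 2 fell in KO. Of the securin and separase genes 1 rose and 1 fell in each genotype. The one that fell was Pttg1, the securin, by 0.55 ± 0.11 and 0.49 ± 0.11. Of 5 RNA editing genes 1 rose and 2 fell in WT and 1 fell in KO; Adar stood at -0.71 ± 0.22 in WT (adjusted p = 0.0403) and at -0.65 ± 0.22 in KO (adjusted p = 0.0571).

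The genes most like each of the 7 members above background were sought among 11359 others by Pearson correlation over the 12 arrays, which share the activation step and the array effects. Closest to Cstb were Rnh1 at 0.985, Kars at 0.984 and Elmo2 at 0.982; within the 6 native arrays alone they stood at 0.814, 0.820 and 0.712. Closest to Pttg1ip were Pi4k2a at 0.989, Man2c1 at 0.986 and Tle3 at 0.981. Icosl was closest to Ehd2 at 0.936, Fkbp3 at 0.927 and Haus7 at 0.924, and within the native arrays these fell to 0.529, 0.562 and 0.493. Sumo3 was closest to Rnf6 (0.969), Chic2 (0.951) and Det1 (0.950), and Ube2g2 to Shfl (0.912), Dph6 (0.868) and Ptpn1 (0.855). Itgb2 was closest to Yaf2 (0.931), Mier2 (0.927) and Ssbp4 (0.924), and within the native arrays these stood at 0.578, 0.387 and 0.798. Mier2 is among the genes within 1.5 Mb of Aire but lies on the side away from Itgb2. The brighter Slc19a1 row was closest to Nhsl2 (0.957), the olfactory receptor Olfr1272 (0.950) and the cytochrome Cyp2c66 (0.933).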

How the data were processed

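RNA extracted with Trizol and RNeasy columns was labelled as biotinylated sense DNA for Affymetrix whole-transcript arrays, per the labels' protocols. The authors deposited log2 expression values; the submitters' processing notes name Partek and RMA, without versions or options. Of 35556 rows, 21789 had 1 symbol, and 21698 of these were matched to the GRCm38.p6 gene table. The unmatched rows were kept under their platform symbol. Of genes with several rows (999) the brightest was kept, giving 19938. Groups were taken from the titles, genotype and treatment labels. Group means were fitted over 12 arrays with limma 3.58.1 in R 4.3.3 (lmFit, eBayes), with Benjamini-Hochberg adjustment over all genes and a threshold of 0.05. RMA compresses differences near background, and the number of arrays limits the precision.

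The genes named were all 10 members, the 3 largest differences each way among the other genes within 1.5 Mb, the 3 closest genes by correlation, and set partner genes of each list; some of the partner genes are not reported here. The members, lists, markers and window were chosen with earlier results of these data known. Pdxk, Col6a2, Ftcd, Trpm2 and the markers named were picked after their values were seen. Deviations of native arrays with equal replicate numbers correlated at 0.58, 0.396 and 0.157, the third hardly above the highest of unequal numbers (0.130). Among activated arrays just number 1 did so (0.694, -0.0166 and -0.0130). The scripts were tested on simulated data. Alternatives were other scalings, filters, variance models, array weights, row rules, windows, a replicate block and leaving out each array.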

Additional observations from a re-analysis of the deposited data

How the results depend on the processing

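No alternative gave a call between genotypes to any of the 10 genes or to any gene within 1.5 Mb, and the Aire differences within each state and the Icosl differences between genotypes kept their sign in all of them. With the replicate number as a block in the fit of 12 arrays, Icosl in native cells stayed at -0.40 and 0 of the 10 genes were called between genotypes; the block changed no call of the 10 genes on activation. With the 75th or the 99th percentile of olfactory receptors as the background level, 9 or 7 of the 10 genes were above it in at least 1 group.

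The average Aire difference over both states, close to 0, changed sign with array weights (0.0011) and without both KO arrays numbered 1 (0.020), and ran from -0.041 to 0.033 with each array left out in turn. The number of the 10 genes called on activation in WT was 2 with only the 6 arrays compared, and 5 with array weights. Of all 19938 genes these settings called 5172 and 6930 in WT, against 4107 in the main fit. In KO the number of the 10 genes called was 2 after quantile normalization, 2 with dim genes filtered out and 3 with array weights. Over all genes these settings called 4780 of 19938, 4111 of 10545 and 6932 of 19938 in KO, against 4002 in the main fit. Leaving out each array gave 1 to 2 of the 10 genes in each genotype. Of all genes it gave 2805 to 5875 in WT and 2823 to 4891 in KO. Genes called on activation within 1.5 Mb numbered 15 of 57 in either genotype with array weights, and 5 of 57 in KO without both KO arrays numbered 1. Of all 19938 genes array weights called 6930 in WT and 6932 in KO, and the fit without both KO arrays numbered 1 called 2190 in KO. A window of 0.5 Mb gave 4 in either genotype (14.8%). One of 5 Mb, which holds more genes, gave 52 in WT (22.6%) and 49 in KO (21.3%), against 20.6% and 20.1% of all genes. Over all genes, activation in WT called 1937 higher and 2170 lower; centring each array on its median gave 2057 and 1597, and quantile normalization 2909 and 2052. In KO the counts were 1739 and 2263, then 1891 and 1710, then 2643 and 2137.

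Other changes of sign concerned differences that passed no test, and their cause was not tested. With array weights, Sumo3 stood at -0.048 between genotypes in native and 0.035 in activated cells, Cstb at -0.091 and Pttg1ip at 0.020 in activated cells. The interactions were then 0.082 for Sumo3, -0.023 for Cstb and 0.076 for Pttg1ip. The activation differences were then 0.067 for Ube2g2 in WT, and in KO -0.0020 for Aire, -0.076 for Slc19a1 and -0.0077 for Adarb1. Without both KO arrays numbered 1, Sumo3 stood at -0.040 between genotypes in native cells, Cstb at -0.066 and Slc19a1 at 0.095 in activated cells. The interactions were then -0.23 for Icosl and 0.0024 for Adarb1. Centring gave Dnmt3l 0.046 and Ube2g2 0.041 on activation in WT, Sumo3 -0.019 between native and Cstb -0.019 between activated genotypes. Quantile normalization gave 0.014 for Dnmt3l, 0.060 for Sumo3 and 0.13 for Ube2g2 on activation in WT, and 0.010 for Slc19a1 between activated genotypes. The mean of both Slc19a1 rows differed by -0.038 between native genotypes.

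Leaving out each array in turn also turned signs. Between native genotypes Sumo3 ran from -0.040 to 0.080, Cstb from -0.16 to 0.11 and Slc19a1 from -0.12 to 0.12. Between activated genotypes Dnmt3l ran from -0.057 to 0.17, Itgb2 from -0.24 to 0.10, Sumo3 from -0.31 to 0.033 and Cstb from -0.28 to 0.26. There Pttg1ip ran from -0.42 to 0.12, Ube2g2 from -0.22 to 0.052 and Slc19a1 from -0.40 to 0.27. The interaction ran from -0.28 to 0.33 for Icosl, -0.29 to 0.050 for Itgb2, -0.32 to 0.027 for Sumo3 and -0.26 to 0.29 for Cstb. It ran from -0.32 to 0.22 for Pttg1ip, -0.44 to 0.24 for Slc19a1 and -0.18 to 0.016 for Adarb1. On activation in WT, Dnmt3l ran from -0.11 to 0.064 and Ube2g2 from -0.17 to 0.10. In KO, Aire ran from -0.018 to 0.12, Dnmt3l from -0.012 to 0.21, Itgb2 from -0.0061 to 0.21, Slc19a1 from -0.18 to 0.50 and Adarb1 from -0.011 to 0.18.

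With 3 arrays per group and a wide spread in activated KO, the 95% intervals of the Icosl differences between genotypes in the fit over 12 arrays include 0, and a level at background is an upper limit.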
